A study of Mus musculus with 34 samples.

Results

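Splenic dendritic cells (DCs) that lack the kinases MST1 and MST2 were compared by subset: 4 arrays labelled Mst1/2-KO CD8+ Dendritic cells against 4 labelled Mst1/2-KO CD8- Dendritic cells, chosen by their titles alone, 8 of the 34 microarrays of the series. The series set DCs without Mst1/2 beside wild-type DCs, as unseparated cells and as the CD8+ and CD8- subsets, with further arrays of other genotypes that are not analysed here. The 8 knockout arrays carry the genotype label Mst1/2-/-, and the 8 arrays used for reference are 4 WT CD8+ DC and 4 WT CD8- DC arrays. Both genotypes are labelled C57BL/6, and the cells of all 16 arrays came straight from the spleen by fluorescence-activated sorting, with no treatment of the cells named. The labels used here do not give the age of the mice, how or in which cells the 2 genes were deleted, the sort gates, or if each array of a group is of another mouse, so the p-values measure the spread between these arrays, which may be technical.

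CD8+ DCs of mouse spleen, counterparts of the XCR1+ or type 1 conventional DCs, depend on the transcription factors IRF8, BATF3 and ID2. They take up dying cells and present the antigens on MHC class I to CD8 T cells, which is called cross-presentation. CD8- DCs, most of which carry CD11b (Itgam) and SIRPα (Sirpa), depend on IRF4 and on NOTCH2 signalling and are known mainly for presenting antigens on MHC class II to CD4 T cells. MST1 (Stk4) and MST2 are the upstream kinases of the Hippo pathway, in which they activate the LATS kinases with the adaptors SAV1 and MOB1. Partners of IRF4 and IRF8 decide which DNA they occupy: with PU.1 or SPIB they bind composite elements that join an ETS site to an IRF half-site, and IRFs activated by interferon bind repeated GAAA elements.

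The promoters of 5 genes that differed at least 2-fold between the 2 knockout subsets are printed because they hold such letters: Cd8a, the gene that names the CD8+ subset, Cd209a, a lectin of the CD8- subset, Cybb, a subunit of the phagocyte oxidase, and the interferon-induced genes Ifit1 and Bst2. Each is the RefSeq window from 250 bases before to 50 bases after the annotated start on GRCm38.p6, 5′ to 3′ on the gene's strand, in lower case. Capitals mark every match, on either strand, to the composite element GGAANNGAA or to the interferon response element GAAANNGAA (a match on the opposite strand reads TTCNNTTCC or TTCNNTTTC).
Cd8a, chr6:71373177-71373476, plus strand: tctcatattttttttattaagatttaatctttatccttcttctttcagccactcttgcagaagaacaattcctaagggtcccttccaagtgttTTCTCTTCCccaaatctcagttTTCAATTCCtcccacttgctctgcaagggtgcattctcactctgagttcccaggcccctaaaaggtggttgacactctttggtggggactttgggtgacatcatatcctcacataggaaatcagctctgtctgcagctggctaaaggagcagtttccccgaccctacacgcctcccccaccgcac
Cd209a, chr8:3748935-3749234, minus strand: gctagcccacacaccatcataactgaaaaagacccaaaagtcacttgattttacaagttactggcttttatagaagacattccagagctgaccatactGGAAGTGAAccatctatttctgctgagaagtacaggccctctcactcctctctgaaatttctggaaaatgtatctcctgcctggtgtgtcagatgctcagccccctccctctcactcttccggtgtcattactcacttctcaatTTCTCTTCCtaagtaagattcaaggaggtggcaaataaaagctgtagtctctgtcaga
Cybb, chrX:9469275-9469574, minus strand: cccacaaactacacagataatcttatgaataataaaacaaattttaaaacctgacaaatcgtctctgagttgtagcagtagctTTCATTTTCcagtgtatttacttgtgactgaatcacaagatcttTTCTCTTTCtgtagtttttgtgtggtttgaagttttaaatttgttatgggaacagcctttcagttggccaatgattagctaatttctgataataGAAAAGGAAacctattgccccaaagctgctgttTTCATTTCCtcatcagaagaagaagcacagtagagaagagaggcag
Ifit1, chr19:34640639-34640938, plus strand: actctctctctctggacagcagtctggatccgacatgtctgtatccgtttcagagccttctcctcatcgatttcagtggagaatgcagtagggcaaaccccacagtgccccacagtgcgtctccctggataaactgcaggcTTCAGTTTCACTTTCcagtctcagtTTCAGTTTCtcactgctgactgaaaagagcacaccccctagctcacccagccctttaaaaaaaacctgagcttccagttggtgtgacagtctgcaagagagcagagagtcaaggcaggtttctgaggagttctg
Bst2, chr8:71537423-71537722, minus strand: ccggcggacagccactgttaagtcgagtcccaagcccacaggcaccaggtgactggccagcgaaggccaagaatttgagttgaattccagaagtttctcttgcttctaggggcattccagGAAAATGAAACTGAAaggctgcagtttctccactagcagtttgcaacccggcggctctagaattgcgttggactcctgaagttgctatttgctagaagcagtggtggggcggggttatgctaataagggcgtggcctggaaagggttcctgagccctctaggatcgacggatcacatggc
The Cd8a window holds 2 composite elements, 157 and 135 bases before the start, and the Cd209a window holds 2, at 152 and 8 bases before it. Cybb holds 3 interferon elements, 167, 123 and 29 bases before the start, and a composite element 4 bases after it. Ifit1 holds 3 interferon elements at 109, 103 and 84 bases before the start, the first pair of which share letters, and Bst2 holds 2 at 130 and 124 bases, which also share letters. A match describes the letters of the window and is not a measured binding site.

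The arrays measured the RNA of 22180 genes on a log2 scale, on which 1 unit is a 2-fold difference. Levels are given as mean ± SD over 4 arrays and differences, always CD8+ minus CD8-, as value ± SE from limma, which was fitted over the 16 sorted arrays. A gene was called when its adjusted p from limma, after Benjamini-Hochberg correction over all 22180 genes, was under 0.05, and only called genes are described as higher or lower. A level can be compared between arrays for one gene and not between genes. Arrays of one group correlated at r = 0.992 to 0.994 among the 4 knockout CD8+ arrays and at 0.991 to 0.994 among the 4 knockout CD8- arrays, and the medians of the 8 arrays lay between 4.11 and 4.17.

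Stk4, the gene of MST1, checks the genotype. Its level was 7.64, 7.22, 7.63 and 7.39 in the knockout CD8+ arrays and 7.49, 7.67, 7.65 and 7.39 in the knockout CD8- arrays, a difference of -0.08 ± 0.10 (adjusted p = 0.693). In the WT arrays it was 8.33 ± 0.09 in CD8+ and 8.32 ± 0.13 in CD8- DCs, so all 8 knockout arrays lay below all 8 WT arrays. Where its probes lie relative to the deleted part is not given in the sources used here, so a remaining signal does not measure remaining kinase. The gene of MST2, Stk3, is not analysed here.

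The sort was well separated by its defining marker and by the other markers of the subsets. Cd8a read 12.16, 12.09, 11.93 and 12.23 in the 4 CD8+ arrays and 8.01, 6.64, 7.48 and 7.36 in the 4 CD8- arrays, 26.6-fold higher in CD8+ DCs (difference 4.73 ± 0.21, adjusted p = 1.58e-11). The CD8- arrays stayed well below the CD8+ arrays, and the CD8- array 1 had the highest Cd8a among them. Of 29 measured CD8+ DC markers all 29 were called higher, with a median difference of 2.70, where 9.93% of all genes were called higher. Of 27 measured CD8- DC markers 23 were called lower in CD8+ DCs, with a median of -2.84, where 9.30% of all genes were called lower. The median over all genes was 0.03. The exceptions among the CD8- DC markers were Rbpj, the DNA-binding partner of Notch (0.47 ± 0.07), and the lectin receptor Clec12a (0.83 ± 0.13), which were higher in CD8+ DCs, and Esam and Notch2, which were not called (differences -0.26 ± 0.14 and -0.13 ± 0.08). These markers are genes known for the sorted subsets, but the lists were chosen with earlier results of these data known. Their counts describe the labelled groups and are not an independent check of the labels.

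**Figure D1:**
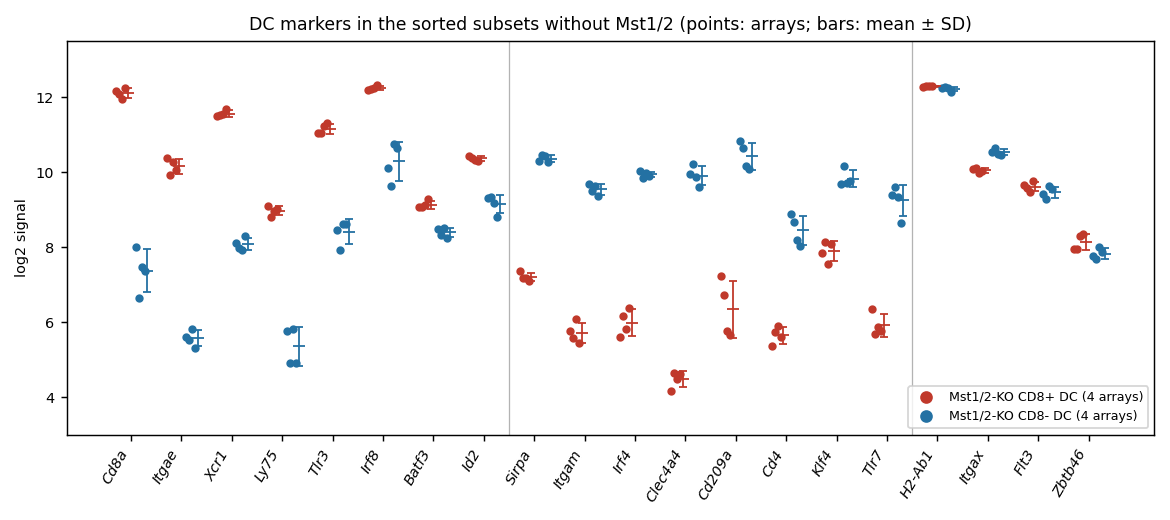
Log2 levels of subset markers in the 8 Mst1/2-KO arrays, 1 point per array and a bar for each mean ± SD, with CD8+ DC and CD8- DC arrays side by side for each gene. The arrays of the 2 groups do not overlap for Cd8a, where the CD8- arrays reach 8.01 and the CD8+ arrays start at 11.93.

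Over all genes, 4266 of 22180 (19.2%) were called, 2203 higher and 2063 lower in CD8+ DCs. At a minimum of 2-fold, 1004 (4.53%) were called, and in 997 of these no array of one subset reached the range of the other. Over all genes the arrays of the subsets did not overlap in 4869 (22.0%). The far end was fuller on the CD8- side: 28 genes were at least 8-fold higher and 79 at least 8-fold lower in CD8+ DCs, and 9 and 17 passed 16-fold.

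The gene with the largest difference toward CD8+ DCs was Ctla2b, which encodes a protein like the propeptide of a cysteine protease. It read 8.91, 9.01, 9.37 and 9.32 in CD8+ arrays and 4.03, 3.74, 4.17 and 3.49 in CD8- arrays, 39.3-fold apart (5.30 ± 0.18, adjusted p = 1.21e-12). Itgae, the αE integrin CD103 that pairs with β7 and binds E-cadherin, read 10.38, 9.92, 10.26 and 10.05 against 5.61, 5.51, 5.83 and 5.32, a 24.0-fold difference (4.58 ± 0.21). In both genes the lowest CD8+ array lay far above the highest CD8- array. The next were the lectin Clec4b2 (4.48 ± 0.31), langerin (Cd207, 4.42 ± 0.16), which forms Birbeck granules in Langerhans cells, the collagen prolyl hydroxylase P3h2 (4.31 ± 0.18), the lipid phosphatase Plpp1 (4.17 ± 0.16) and the signalling adaptor Gcsam (4.04 ± 0.17). Further down the 20 largest were the phosphatase Ppef2 (3.94 ± 0.27), the orphan receptors Gpr33 (3.54 ± 0.15) and Gpr141b (3.39 ± 0.20), Hepacam2 (3.53 ± 0.21), the disulfide isomerase Pdia5 (3.44 ± 0.19), Fam149a (3.44 ± 0.11), Fndc7 (3.28 ± 0.13) and the cysteine protease inhibitor Stfa2l1 (3.27 ± 0.23).

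On the CD8- side the largest difference belonged to Cd7, an immunoglobulin-family receptor known from T and NK cells. Cd7 read 6.89, 6.82, 6.42 and 6.61 in CD8+ arrays and 12.32, 12.28, 12.23 and 12.23 in CD8- arrays, 47.9-fold lower in CD8+ DCs (-5.58 ± 0.24, adjusted p = 1.41e-11). Clec4a4, the lectin DCIR2 that the 33D1 antibody detects on CD8- DCs, read 4.18, 4.64, 4.49 and 4.62 against 9.94, 10.21, 9.86 and 9.60, 42.9-fold lower (-5.42 ± 0.17). In both genes the arrays of one subset lay close together. Bex6 (-4.68 ± 0.24), the signalling adaptor Sh2d1b1 (-4.47 ± 0.16), Mcemp1 (-4.06 ± 0.13), the membrane protein Emp1 (-3.94 ± 0.51) and the actin regulator Carmil1 (-3.89 ± 0.14) were also among the 20 lowest, most of the rest being the lectins and receptors described further on.

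The transcription factors that specify DC subsets differed in 23 of 33 measured cases, 6 higher and 17 lower in CD8+ DCs. Irf8, required for the CD8+ subset, read 12.19, 12.22, 12.23 and 12.31 in CD8+ arrays and 10.12, 9.62, 10.75 and 10.64 in CD8- arrays, 3.88-fold higher (1.96 ± 0.23, adjusted p = 4.08e-06). The CD8+ arrays lay close together, and the CD8- arrays spread over a wider range below them. The CD8+ factors Id2, an inhibitor of E proteins (1.20 ± 0.11), the AP-1 factor Batf3 (0.74 ± 0.10) and the MYC-family factor Mycl (1.52 ± 0.12) were higher too. Irf4, required for the CD8- subset, read 5.60, 6.15, 5.82 and 6.39 in CD8+ arrays and 10.03, 9.85, 9.97 and 9.90 in CD8- arrays, 15.4-fold lower (-3.95 ± 0.21). It was joined by the zinc-finger factor Klf4 (-1.92 ± 0.26), the T-box factor Tbx21 (-1.80 ± 0.16), the NF-kB subunit Relb (-1.42 ± 0.14) and PU.1 itself (Spi1, -0.36 ± 0.06). Spib, an ETS factor of plasmacytoid and B cells, read 4.46, 4.32, 4.61 and 3.91 against 8.21, 7.84, 8.21 and 8.66, and Tcf4, the E protein that specifies plasmacytoid DCs, read 7.18, 7.21, 7.20 and 7.04 against 9.29, 9.07, 9.33 and 9.53. They were 15.0-fold and 4.42-fold lower in CD8+ DCs. Both are members of the plasmacytoid DC marker list given later, and the part of that list in their difference was not tested. Zbtb46, which marks conventional DCs as a class, was not called (0.31 ± 0.16, adjusted p = 0.224).

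Composite elements of the kind printed above were searched in the 16918 RefSeq windows of measured genes, 317 of them of genes at least 2-fold higher and 458 of genes at least 2-fold lower in CD8+ DCs. GGAANNGAA lay in 8.93% of all windows, 8.83% of the higher and 13.8% of the lower set. The PU.1 core GAGGAAG lay in 14.9% of all windows, 22.1% of the higher and 24.9% of the lower set. The AP-1 element TGANTCA lay in 8.39%, 8.20% and 10.5%, and the RBPJ core TGGGAA in 27.3%, 23.3% and 31.9%. Both strands were read and matches of different elements may overlap. The shares are descriptions and carry no test.

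The Notch list was split, with 6 of 25 measured members higher, 7 lower and 12 not called. Higher in CD8+ DCs were the receptor Notch4 (2.01 ± 0.18), the ligand Jag2 (1.47 ± 0.16), the co-activator Maml2 (1.08 ± 0.13), the E3 ligase Dtx4 (1.09 ± 0.14) and the inhibitor Numb (0.61 ± 0.09), with Rbpj above. Lower were the Notch target Dtx1 (-2.76 ± 0.16), the co-activator Maml3 (-1.35 ± 0.16) and the ligand Jag1 (-1.01 ± 0.19). Dtx1 read 5.42, 5.30, 5.33 and 5.44 in CD8+ arrays and 8.27, 8.33, 8.20 and 7.73 in CD8- arrays. Each pair of related members thus pointed both ways: Jag2 against Jag1, Maml2 against Maml3 and Dtx4 against Dtx1. Of the Hippo pathway 2 of 23 members were called higher and 4 lower, near the 19.2% of all genes, and only Rassf2, a binding partner of the MST kinases (-0.92 ± 0.10), kept its call when each array was left out in turn. The other calls, of Lats1, Sav1, Lats2, Stk38 and Rassf5, had differences between -0.42 and 0.25, and each array left out ended at least 1 of them.

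Pattern recognition receptors divided by subset. Of 29 Toll-like receptors and nucleic acid sensors 4 were higher and 14 lower in CD8+ DCs. Higher were Tlr3, the sensor of double-stranded RNA, and Tlr11 and Tlr12, which detect profilin of apicomplexan parasites. Tlr3 read 11.05, 11.04, 11.22 and 11.31 against 8.47, 7.92, 8.62 and 8.63 (6.70-fold), and Tlr11 and Tlr12 differed by 2.16 ± 0.12 and 2.39 ± 0.18. On the CD8- side, Tlr7, the endosomal sensor of single-stranded RNA, read 6.35, 5.67, 5.88 and 5.75 in CD8+ arrays and 9.38, 9.61, 9.34 and 8.65 in CD8- arrays, 10.1-fold lower in CD8+ DCs (-3.33 ± 0.22). Its relative Tlr8 (-1.97 ± 0.13), the lipopeptide receptor Tlr1 (-2.48 ± 0.10), the flagellin receptors Tlr5 (-1.24 ± 0.17) and, in the cytosol, Nlrc4 (-1.76 ± 0.14), and the RNA helicase RIG-I (Ddx58, -2.55 ± 0.14) were lower as well.

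C-type lectins, which bind sugars on microbes or dead cells, were called in 21 of 25 cases, 5 higher and 16 lower, a share well above the 19.2% of all genes. Cd207, Clec4b2 and Ly75, the endocytic receptor DEC-205, were the largest on the CD8+ side. Ly75 read 9.08, 8.80, 8.97 and 9.01 against 5.77, 4.90, 5.83 and 4.91 (12.2-fold higher). Close relatives in the Clec4 cluster went opposite ways: Clec4b2 read 8.78, 8.70, 8.37 and 8.90 in CD8+ and 3.85, 4.92, 3.17 and 4.87 in CD8- arrays, while Clec4b1 read 4.33, 4.02, 4.32 and 4.17 and 8.17, 8.13, 8.66 and 8.28. The former was 22.4-fold higher and the latter 17.1-fold lower in CD8+ DCs. The DC-SIGN relative Cd209a read 7.24, 6.71, 5.77 and 5.66 against 10.82, 10.64, 10.15 and 10.08 (-4.08 ± 0.27), but its other probe set, of lower signal, differed by 0.10 ± 0.17 (adjusted p = 0.79). Also lower were its relative Cd209d (-5.05 ± 0.23), the receptors Clec4a1 (-4.03 ± 0.17) and Clec4a2 (-3.04 ± 0.14), the β-glucan receptor dectin-1 (Clec7a, -2.84 ± 0.28) and the galactose lectins Clec10a (-1.75 ± 0.20) and Mgl2 (-1.13 ± 0.14).

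SIRP, Siglec, CD300 and killer lectin-like receptors, mostly inhibitory or activating partners of phosphatases and adaptors, lay on the CD8- side: 26 of 28 measured members were lower in CD8+ DCs and none was higher, with a median of -2.42. Sirpa, the receptor of the CD47 signal of healthy cells, read 7.37, 7.18, 7.18 and 7.09 in CD8+ and 10.31, 10.44, 10.42 and 10.27 in CD8- arrays, 8.91-fold lower (-3.16 ± 0.09). Klrd1, the CD94 chain that pairs with NKG2 receptors, read 7.30, 7.27, 6.29 and 7.36 against 11.91, 11.68, 11.55 and 11.42 (-4.58 ± 0.20), and its partner NKG2A (Klrc1) differed by -3.71 ± 0.27. Klra17, a Ly49 receptor, spread more between arrays: 4.48, 5.23, 5.76 and 5.50 against 9.62, 9.13, 10.66 and 10.41, a difference of -4.71 ± 0.49. Sirpb1a (-4.09 ± 0.17), Sirpb1c (-4.48 ± 0.18), Cd33 (-3.98 ± 0.23), Cd300ld (-3.69 ± 0.15), Klri2 (-3.55 ± 0.31) and Cd22 (-2.69 ± 0.10) moved the same way. Fc and complement receptors followed: 10 of 13 were lower and none higher, among them CD11b (Itgam, -3.82 ± 0.14), the shared Fc γ chain Fcer1g (-2.34 ± 0.08), and Fcgr4 (-1.61 ± 0.18), Fcgr2b (-1.53 ± 0.26), Fcgr1 (-1.40 ± 0.23) and Fcgr3 (-1.09 ± 0.14).

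**Figure D2:**
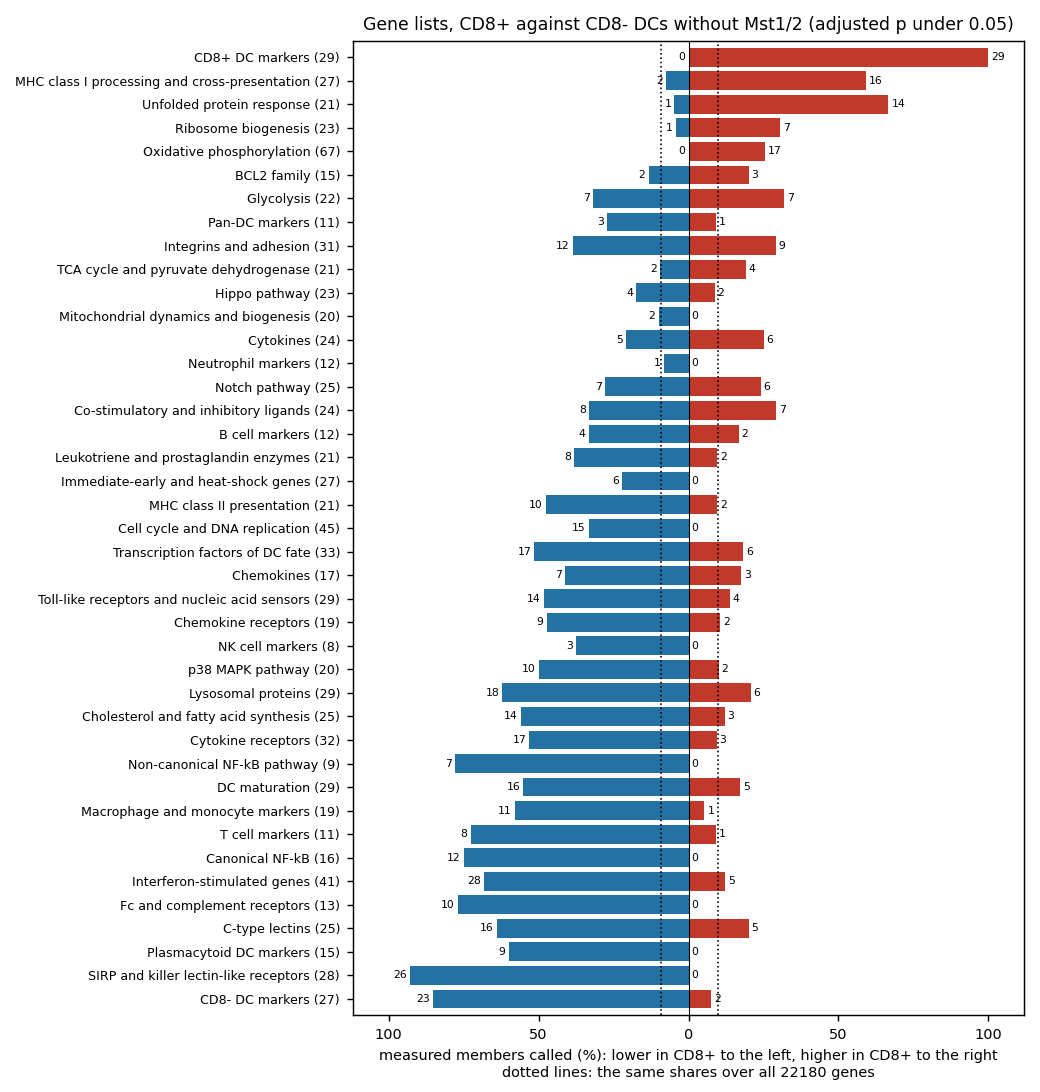
Members called higher and lower in Mst1/2-KO CD8+ DCs for each gene list, as a percent of measured members, with numbers of members beside the bars and the shares over all 22180 genes as dotted lines. SIRP and killer lectin-like receptors lie wholly on the lower side (26 of 28), whereas unfolded protein response genes lie mostly on the higher side (14 of 21).

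Genes of the MHC class I route leaned to CD8+ DCs, with 16 of 27 measured members higher, 2 lower and a median of 0.41. The differences were mostly small: the peptide transporter subunits Tap1 (0.85 ± 0.08) and Tap2 (1.14 ± 0.09), the tapasin relative Tapbpl (0.72 ± 0.10), the translocon subunit Sec61a1 (0.45 ± 0.07), Rab43 (1.27 ± 0.07) and Wdfy4, which cross-presentation of cell-associated antigen requires (1.08 ± 0.08). Tap1 read 9.58, 9.50, 9.66 and 9.73 in CD8+ arrays and 8.71, 8.62, 8.98 and 8.77 in CD8- arrays. Rab7b, a GTPase of late endosomes, stood out with 10.27, 10.28, 10.51 and 10.33 against 6.81, 6.96, 7.45 and 6.86, higher by 3.33 ± 0.17. The largest lower member was Cybb, the NADPH oxidase subunit gp91phox, whose oxidase slows the acidification of phagosomes. Cybb read 7.93, 8.09, 8.10 and 7.95 in CD8+ arrays and 11.76, 11.83, 11.80 and 11.67 in CD8- arrays, 13.4-fold lower (-3.75 ± 0.13, adjusted p = 1.24e-12).

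The MHC class II molecules themselves were not called. H2-Ab1 read 12.28, 12.28, 12.30 and 12.29 in CD8+ and 12.23, 12.26, 12.25 and 12.13 in CD8- arrays, a difference of 0.07 ± 0.06 (adjusted p = 0.486) with no overlap between the groups, and H2-Aa and H2-Eb1 differed by -0.05 ± 0.06 and 0.01 ± 0.06. Such signals lie near the top of the range of these arrays, on which the highest value of any probe set was 13.2. The class II transactivator Ciita did not pass either (0.30 ± 0.11, adjusted p = 0.0664), although its 2 groups of arrays did not overlap. What differed was the machinery around them: 10 of 21 measured members were lower and 2 higher. The thiol reductase Ifi30 (-0.91 ± 0.09), the proteases Lgmn (-1.76 ± 0.11), Ctsl (-1.29 ± 0.20), Ctsd (-1.10 ± 0.14) and Ctsh (-0.73 ± 0.08), the non-classical β chain H2-Eb2 (-2.74 ± 0.18) and the peptide editor chain H2-DMb2 (-0.66 ± 0.07) were lower, and the promoter factor Rfxap was higher (0.94 ± 0.09). Lgmn read 7.54, 7.46, 7.13 and 7.28 against 9.18, 9.35, 9.02 and 8.90. Lysosomal proteins as a list had 18 of 29 members lower and 6 higher, with Acp5 (-2.32 ± 0.17), the carboxypeptidase Ctsa (-1.75 ± 0.07) and the cholesterol exporter Npc1 (-1.31 ± 0.09) lower and the amidase Naaa (2.26 ± 0.15) and the thioesterase Ppt1 (1.56 ± 0.09) higher.

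**Figure D3:**
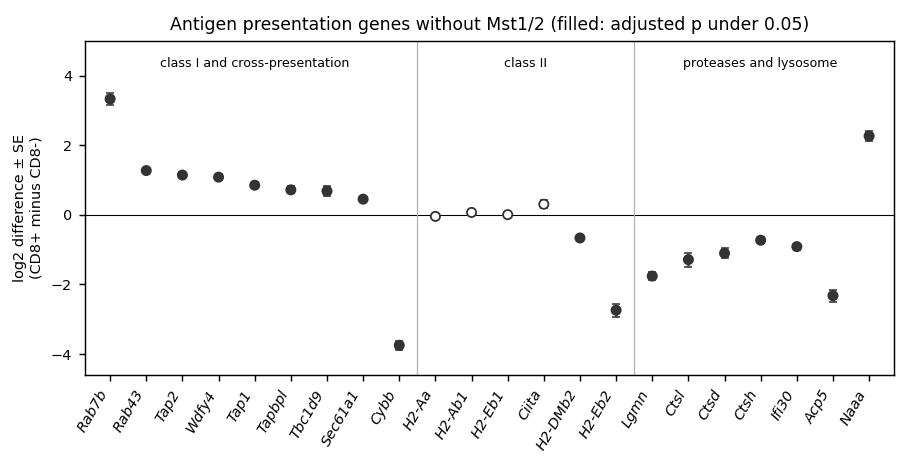
Log2 differences (CD8+ minus CD8-, ± SE, n = 4 against 4 arrays) of genes of MHC class I and class II presentation in Mst1/2-KO DCs. Rab7b lies at 3.33 and Cybb at -3.75, while H2-Aa, H2-Ab1 and H2-Eb1, drawn open because they were not called, lie between -0.05 and 0.07.

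Interferon-stimulated genes were mostly lower in CD8+ DCs: 28 of 41 measured members were lower, 5 higher and 8 not called, with a median of -0.84. The higher count was 3 without knockout CD8+ array 1, 2 or 3 or CD8- array 1, 2 or 4. Oas2, an activator of RNase L, read 5.34, 5.82, 5.12 and 5.21 in CD8+ arrays and 8.91, 8.76, 9.10 and 7.64 in CD8- arrays, 9.39-fold lower (-3.23 ± 0.31). Ifit1, which binds RNA without cap methylation, read 4.95, 5.14, 5.06 and 5.07 against 7.48, 7.09, 7.52 and 6.25 (-2.03 ± 0.22), and Bst2, the virion tether tetherin, 9.13, 8.91, 8.69 and 9.03 against 10.32, 9.81, 10.11 and 10.49 (-1.24 ± 0.16). No array of one subset reached the other in any of the 3 genes. Rtp4 (-3.60 ± 0.25), Mndal (-3.04 ± 0.27), Oasl2 (-2.44 ± 0.22), Ifitm6 (-2.42 ± 0.15), Ifitm1 (-1.76 ± 0.21) and Xaf1 (-1.69 ± 0.20) were lower too. Ifi205 (1.24 ± 0.15), a marker of CD8+ DCs, was higher, and Irf7, the interferon master regulator, was not called (-0.07 ± 0.15). In the RefSeq windows GAAANNGAA lay in 9.28% of all genes, in 8.83% of genes at least 2-fold higher and in 18.3% of genes at least 2-fold lower in CD8+ DCs. Of the list's own members with a window 18 of 32 hold it (56.2%), and 14 of the 22 called lower do (63.6%). The plasmacytoid DC marker list, which shares Bst2 and Irf7 with the interferon list, moved the same way. Its mean level was 6.52 to 6.68 in CD8+ and 7.67 to 8.07 in CD8- arrays. Its part in these differences was not tested.

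Chemokine receptors were called in 11 of 19 cases, 2 higher and 9 lower. Xcr1, the receptor of XCL1 that guides CD8+ DCs to T and NK cells, read 11.48, 11.52, 11.54 and 11.68 in CD8+ and 8.11, 7.99, 7.92 and 8.29 in CD8- arrays, 11.2-fold higher (3.48 ± 0.14), and its ligand gene Xcl1 was lower in the same cells (-3.61 ± 0.30). Cxcr3, the receptor of interferon-induced chemokines, was 4.05-fold higher (2.02 ± 0.16), as was one of its ligands, Cxcl9 (1.76 ± 0.12). The oxysterol receptor EBI2 (Gpr183), which places CD8- DCs at the bridging channels, read 7.42, 7.57, 8.12 and 7.84 against 10.29, 10.34, 10.06 and 10.12, 5.53-fold lower (-2.47 ± 0.22). The fractalkine receptor Cx3cr1 (-3.11 ± 0.16), Ccr1 (-2.34 ± 0.20), Ccrl2 (-2.29 ± 0.17), Ccr6 (-2.01 ± 0.20) and Ccr2 (-1.84 ± 0.26) were lower. Chemokines were split 3 higher and 7 lower of 17: Cxcl16 (1.21 ± 0.12) and Ccl2 (0.99 ± 0.24) were higher, and Ccl9 (-3.29 ± 0.25), Ccl5 (-2.02 ± 0.15), Ccl3 (-1.73 ± 0.26) and Ccl6 (-1.64 ± 0.17) lower.

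Cytokine genes were split as well, 6 higher and 5 lower of 24. Il15, trans-presented to memory CD8 T and NK cells, read 7.92, 8.04, 7.40 and 8.24 in CD8+ and 5.67, 5.62, 5.84 and 5.86 in CD8- arrays, 4.45-fold higher (2.15 ± 0.15). Il12b, the p40 chain of IL-12, read 8.28, 7.94, 7.76 and 7.81 against 7.01, 7.06, 7.11 and 6.23 (1.09 ± 0.23, adjusted p = 0.0016), and Il18 was higher by 1.14 ± 0.27. The lymphotoxin gene Ltb (-3.31 ± 0.16), the 4-1BB ligand Tnfsf9 (-2.88 ± 0.20), the IL-1 antagonist Il1rn (-2.11 ± 0.14), Bmp2 (-1.33 ± 0.14) and Il1b (-0.73 ± 0.19) were lower. Ltb read 5.93, 5.65, 5.22 and 5.55 against 9.07, 9.13, 8.74 and 8.64. Cytokine receptors leaned to CD8- DCs, with 17 of 32 lower and 3 higher (1 higher without knockout CD8+ array 1): the decoy receptor Il1r2 (-3.40 ± 0.52), Il21r (-3.48 ± 0.17), Il7r (-3.00 ± 0.26), Csf1r (-2.41 ± 0.15), Csf3r (-1.51 ± 0.09), Tnfrsf1b (-1.44 ± 0.12), Il18r1 (-1.43 ± 0.16) and Il13ra1 (-1.18 ± 0.13) were lower. The DC growth factor receptor Flt3 was not called (0.15 ± 0.09, adjusted p = 0.301).

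Among co-stimulatory and inhibitory ligands 7 of 24 were higher and 8 lower. Cd86, the CD28 ligand B7-2, read 11.37, 11.36, 11.41 and 11.37 in CD8+ and 9.49, 9.27, 9.58 and 9.32 in CD8- arrays, 3.90-fold higher. The inhibitory receptor Btla (2.02 ± 0.09), Cd200 (2.46 ± 0.13) and Cd24a (0.79 ± 0.10) were higher too. The PD-1 ligand Cd274 read 6.67, 6.48, 6.79 and 6.05 against 9.12, 9.16, 9.12 and 8.61, 5.67-fold lower, and the other PD-1 ligand Pdcd1lg2 (-1.41 ± 0.23), the CD30 ligand Tnfsf8 (-2.43 ± 0.19) and Lgals9 (-1.04 ± 0.20) were also lower. DC maturation genes were lower in 16 of 29 cases and higher in 5. Stat4, the transducer of IL-12, read 5.92, 5.26, 6.10 and 5.37 against 10.30, 10.10, 10.08 and 9.94 (21.7-fold lower), and H2-M2 (-2.66 ± 0.23) followed, while Apol7c, an apolipoprotein L of CD8+ DCs, was higher (1.82 ± 0.26).

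The NF-kB lists ran one way. Of 9 measured members of the non-canonical pathway 7 were lower in CD8+ DCs and none higher: Relb (-1.42 ± 0.14), its partner Nfkb2 (-0.97 ± 0.07), the ligases Traf2 (-0.62 ± 0.11), Birc2 (-0.59 ± 0.11) and Birc3 (-0.49 ± 0.09), the kinase NIK (Map3k14, -0.41 ± 0.10) and the receptor Cd40 (-0.34 ± 0.11). The call of Cd40 alone among them was lost when single arrays were left out (knockout CD8+ array 1, 2 or 4, or CD8- array 1 or 3; adjusted p up to 0.127). Nfkb2 read 7.34, 7.26, 7.38 and 7.42 in CD8+ arrays and 8.36, 8.25, 8.35 and 8.33 in CD8- arrays. Of 16 members of the canonical pathway and its feedback genes 12 were lower and none higher. Among the lower were Bcl3 (-2.97 ± 0.14), the brake A20 (Tnfaip3, -1.46 ± 0.19) and the inhibitors Nfkbia (-1.25 ± 0.11) and Nfkbie (-1.13 ± 0.12). Nfkbiz (-1.43 ± 0.18), Traf1 (-0.94 ± 0.10), Tnip1 (-0.82 ± 0.10) and Rel (-0.74 ± 0.15) were lower too. Immediate-early and heat-shock genes, which also respond to cell handling, were lower in 6 of 27 cases and higher in none, where 9.30% of all genes were called lower. Nr4a1 (-0.61 ± 0.15), Ier2 (-0.51 ± 0.12) and Zfp36 (-0.49 ± 0.09) were among the 6. Without knockout CD8+ array 3 or CD8- array 2 the count fell to 3, near the share over all genes. The part of these genes in the NF-kB differences was not tested. The p38 MAPK list had 10 of 20 lower and 2 higher, with Gadd45b (-1.68 ± 0.18), Mapkapk3 (-1.29 ± 0.21), Mapk11 (-1.27 ± 0.14) and Map3k5 (-1.12 ± 0.10) lower and the kinase Map2k6 higher (1.66 ± 0.16).

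Enzymes that make lipid mediators from arachidonic acid lay on the CD8- side, 8 of 21 lower and 2 higher. Ptgs2, the inducible cyclo-oxygenase COX-2, read 7.79, 7.31, 7.33 and 6.32 in CD8+ and 12.00, 12.15, 11.84 and 11.52 in CD8- arrays, 25.8-fold lower (-4.69 ± 0.28). Alox5, the 5-lipoxygenase that starts leukotriene synthesis, read 5.27, 5.17, 5.36 and 5.39 against 9.06, 8.73, 9.05 and 9.71, 14.3-fold lower (-3.84 ± 0.19), and the same gene's other probe set differed by -3.41 ± 0.28. Other members of the list were lower too: phospholipase A2 (Pla2g4a, -1.26 ± 0.10), the leukotriene A4 hydrolase Lta4h (-1.57 ± 0.11), Ggt5 (-1.31 ± 0.17) and the leukotriene B4 receptor Ltb4r1 (-2.61 ± 0.13). Of the 21 members 11 were not called, among them Alox5ap, the protein that activates 5-lipoxygenase (0.09 ± 0.07, adjusted p = 0.389). Thromboxane synthase (Tbxas1, 1.43 ± 0.16) and the prostaglandin E2 receptor Ptger2 (1.81 ± 0.13) were higher.

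Metabolic lists varied in how many of their members were called. Oxidative phosphorylation had 17 of 67 members higher and none lower, with a median of 0.15, and the largest differences were small: Ndufs4 (0.57 ± 0.07), Ndufa12 (0.56 ± 0.07) and Cycs (0.51 ± 0.06). Glycolysis was split 7 to 7 of 22 by isoform and transporter: the hexokinase Hk3 read 7.08, 6.83, 7.23 and 6.81 against 4.82, 4.62, 4.74 and 4.74 (4.78-fold higher), and Pfkp (0.99 ± 0.15) and Pgk1 (0.84 ± 0.09) were higher, whereas the glucose transporters Slc2a3 (-2.46 ± 0.12) and Slc2a6 (-2.47 ± 0.21), the enolase Eno3 (-1.48 ± 0.19) and the lactate exporter Slc16a3 (-1.04 ± 0.20) were lower. In the TCA cycle Suclg1 (0.49 ± 0.08) and Idh2 (0.48 ± 0.11) were higher and Mdh2 (-0.73 ± 0.08) and Pdha1 (-0.64 ± 0.13) lower. The list had 4 higher and 2 lower of 21, the latter near the 9.30% of all genes called lower. Mitochondrial dynamics and biogenesis had 2 of 20 called, both lower and again near that share, the co-activators Ppargc1a (-0.35 ± 0.11) and Ppargc1b (-0.39 ± 0.12), and neither call was left without knockout CD8+ array 1, 2 or 4. Cholesterol and fatty acid synthesis leaned to CD8- DCs, with 14 of 25 lower and 3 higher. Hmgcs1, the enzyme before HMG-CoA reductase, read 7.14, 7.06, 7.35 and 7.29 in CD8+ and 8.60, 8.73, 9.12 and 8.76 in CD8- arrays (-1.59 ± 0.16), and Msmo1 (-1.17 ± 0.14), Fdft1 (-1.07 ± 0.17), Fads2 (-0.89 ± 0.22), Insig1 (-0.85 ± 0.15) and Mvd (-0.79 ± 0.10) followed. The desaturase Scd1 was higher (0.83 ± 0.20).

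The unfolded protein response showed the reverse lean, 14 of 21 members higher and 1 lower with a median of 0.34. Its chaperones and their cofactors were higher: Creld2 (1.11 ± 0.16), Sdf2l1 (0.89 ± 0.14), Pdia6 (0.69 ± 0.11), Dnajc3 (0.62 ± 0.07), Manf (0.61 ± 0.09), Hsp90b1 (0.49 ± 0.09) and Dnajb11 (0.49 ± 0.08). Creld2 read 8.82, 8.72, 8.99 and 8.97 in CD8+ and 7.89, 7.49, 7.85 and 7.82 in CD8- arrays. Ribosome biogenesis had 7 of 23 higher and 1 lower (none lower without knockout CD8+ array 2), led by the polymerase I subunit Polr1a (1.01 ± 0.12), Ppan (0.74 ± 0.07) and Pes1 (0.68 ± 0.07). Cell cycle genes were lower in 15 of 45 cases and higher in none. The largest was the D cyclin Ccnd2, which read 5.99, 5.87, 6.48 and 6.19 against 9.35, 9.48, 9.84 and 9.31 (10.3-fold lower), and the inhibitor Cdkn1a (-1.35 ± 0.27) and the other D cyclins Ccnd1 (-1.20 ± 0.11) and Ccnd3 (-0.71 ± 0.14) were lower, while the proliferation genes Nusap1 (-0.68 ± 0.14) and Cenpf (-0.60 ± 0.14) differed less. Of the BCL2 family, 3 of 15 were higher and 2 lower: the largest higher were Bcl2l14 (1.39 ± 0.12) and Bid (0.80 ± 0.11), and the lower were Bcl2 (-1.04 ± 0.10) and Bcl2l11 (-0.33 ± 0.10). The other probe set of Bcl2 differed by -0.20 ± 0.12 (adjusted p = 0.314).

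Adhesion molecules separated the subsets in both directions, 9 of 31 higher and 12 lower. After Itgae, the integrin α8 chain Itga8 read 7.79, 7.57, 7.40 and 7.71 in CD8+ and 4.52, 4.33, 4.25 and 4.60 in CD8- arrays, 9.18-fold higher, and Cadm1 (2.24 ± 0.12), Itga1 (1.83 ± 0.16) and the tetraspanin Cd81 (1.77 ± 0.10) were higher. Itgam read 5.76, 5.57, 6.08 and 5.46 against 9.69, 9.51, 9.62 and 9.35, 14.2-fold lower. Of the same family of cell adhesion molecules as Cadm1, Cadm3 was lower (-3.49 ± 0.14), as was the β3 integrin Itgb3 (-1.92 ± 0.15).

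Markers of other spleen cells were read in the same arrays, since the sort gates are not given. Plasmacytoid DC markers were lower in CD8+ DCs in 9 of 15 cases and higher in none. The mean log2 level of the 15 markers ran from 6.52 to 6.68 over the knockout CD8+ arrays and from 7.67 to 8.07 over the knockout CD8- arrays. Siglech, a Siglec largely restricted to these cells, read 7.49, 7.43, 7.23 and 7.03 against 8.68, 8.20, 9.08 and 9.24 (-1.51 ± 0.19), and Ly6c2 (-3.48 ± 0.37), Cox6a2 (-3.36 ± 0.17), Upb1 (-1.74 ± 0.21), Smim5 (-1.23 ± 0.23) and Cd300c (-1.14 ± 0.17) were lower with Spib, Tcf4 and Bst2. Klk1 (-0.22 ± 0.12), Ly6d (-0.20 ± 0.12), Pacsin1 (0.14 ± 0.11), Ccr9 (0.16 ± 0.30), Mzb1 (0.13 ± 0.11) and Irf7, also plasmacytoid markers, were not called. In sorted bulk samples fewer cells of a type and less RNA per cell cannot be told apart.

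T cell markers were lower in 8 of 11 cases and higher in 1, and their mean level ran from 4.43 to 4.55 in CD8+ and from 5.16 to 5.54 in CD8- arrays. Cd3e read 3.70, 4.20, 4.01 and 3.73 against 5.35, 5.35, 5.77 and 4.75 (-1.40 ± 0.24), and Cd3g (-1.47 ± 0.33), Cd2 (-1.28 ± 0.24) and Cd5 (-0.91 ± 0.14) were lower with Il7r. The exception was Cd8b1, the β chain of CD8, higher by 0.74 ± 0.16 against the 4.73 of Cd8a. Cd4, which CD8- DCs of the spleen also carry, differed by -2.80 ± 0.21. B cell markers were lower in 4 of 12 cases and higher in 2, and the defining Cd79a (0.16 ± 0.16), Pax5 (0.19 ± 0.13) and Ighm (-0.08 ± 0.08) were not called, although 1 of the 6 other probe sets of Ighm was lower (-2.93 ± 0.32). Cd79b read 5.10, 5.17, 4.70 and 6.06 against 7.47 to 8.01. Macrophage and monocyte markers were lower in 11 of 19 cases and higher in 1, their mean level running from 6.87 to 7.05 in CD8+ and from 7.54 to 7.69 in CD8- arrays: Ace (-2.92 ± 0.19), Adgre1 (-2.54 ± 0.15) and Timd4 (-1.77 ± 0.18) were lower, Treml4 higher (1.72 ± 0.10), and the red pulp and marginal zone markers Cd5l (-0.26 ± 0.17), Vcam1 (-0.08 ± 0.22) and Marco (-0.03 ± 0.15) were not called. NK cell markers were lower in 3 of 8 cases (1 of 8 without knockout CD8- array 2 or 3). Neutrophil markers were lower in 1 of 12 (2 without knockout CD8+ array 4 or CD8- array 2). Neither list had a higher member, except for 1 neutrophil marker without knockout CD8+ array 1. Over all genes 9.30% were called lower. The neutrophil count lay near that share, as did the NK count of 1 of 8. The part of these lists in the differences of Fc receptors, killer lectin-like receptors and cytokine receptors was not tested.

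MicroRNA genes were rarely called: 24 of 483 (4.97%), 13 higher and 11 lower, against 19.2% of all genes. With only the 11090 genes above the median gene fitted, 4208 were called, so calls were more frequent at higher signals. The levels of the microRNA genes were not compared with those of other genes, and the part of signal in their share was not tested. All 8 called at 2-fold or more had arrays that did not overlap. The arrays detect the transcript of the gene and not the mature microRNA. Of the 8, Mir3070b was the only one higher in CD8+ DCs. Mir142, a gene active throughout blood cells, read 7.27, 7.29, 6.86 and 6.50 in CD8+ and 8.32, 8.37, 7.60 and 7.80 in CD8- arrays (-1.05 ± 0.26), Mir15a, of a cluster known to target Bcl2, read 7.17, 6.23, 5.13 and 6.13 against 7.53, 7.62, 7.71 and 7.52 (-1.43 ± 0.42), and Mir3070b read 5.80, 5.82, 6.18 and 6.01 against 4.45, 4.14, 3.92 and 4.87 (1.61 ± 0.25). The call of Mir15a was lost without knockout CD8+ array 3 or CD8- array 3 (adjusted p up to 0.0848). The mature forms of these 3 genes are printed from RefSeq (GRCm38.p6), 5′ to 3′, because the seed sets which targets a microRNA can pair with. Capitals mark the seed (bases 2 to 8), and the 6 forms share none.
mmu-miR-142a-5p: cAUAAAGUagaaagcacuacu
mmu-miR-142a-3p: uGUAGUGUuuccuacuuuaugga
mmu-miR-15a-5p: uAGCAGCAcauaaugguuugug
mmu-miR-15a-3p: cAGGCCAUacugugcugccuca
mmu-miR-3070-5p: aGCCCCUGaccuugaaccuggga
mmu-miR-3070-2-3p: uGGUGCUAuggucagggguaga

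The WT arrays show how much of the subset difference is shared by cells with Mst1/2. The WT comparison called 4663 genes (21.0%), and 3122 genes were called in both genotypes, 73.2% of the knockout calls and 67.0% of the WT calls. Of these 3117 had the same direction. Of the 1004 genes called at 2-fold or more in the knockout, 793 were so in WT in the same direction. Across the 22180 genes the 2 differences correlated at r = 0.89, a description over genes that share arrays and are not independent. The knockout comparison called 1144 genes that WT did not, but for only 29 of these was the difference between the genotypes itself called. That test of the difference, the knockout subset difference minus the WT one, called 124 genes (0.559%), 49 above and 75 below 0, and 2029 genes had an unadjusted p under 0.05. Of the 124, the difference was larger in size in the knockout for 57 and smaller for 67, and 24 had opposite signs in the 2 genotypes. The count rests on single arrays: it was 259 without WT CD8- array 1, 183 without knockout CD8- array 2, 80 without knockout CD8- array 4 and 79 without WT CD8- array 2.

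**Figure D4:**
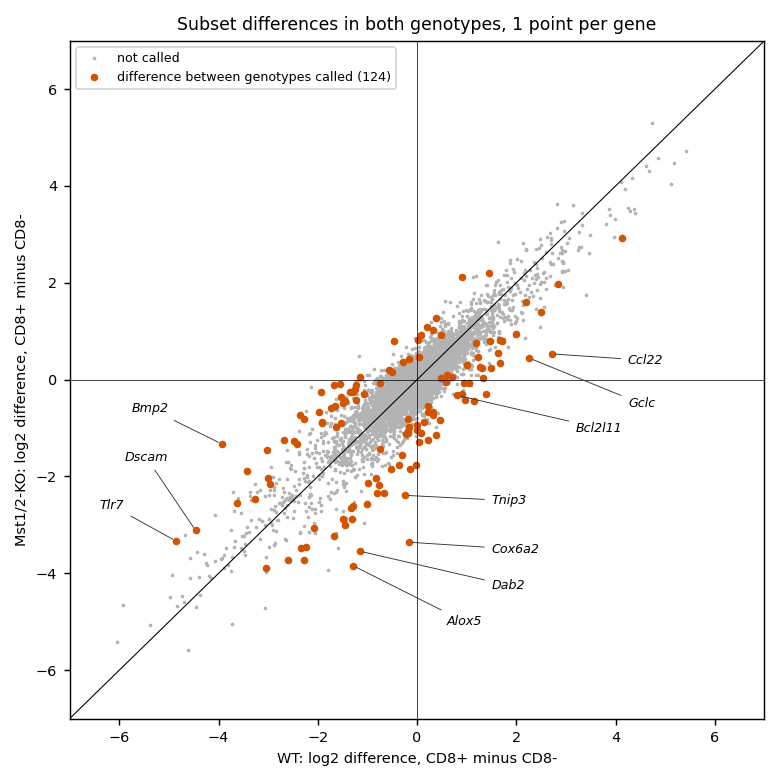
Log2 difference between CD8+ and CD8- DCs in Mst1/2-KO (vertical) against WT (horizontal), 1 point per gene, with the 124 genes whose difference between genotypes was called in orange and the line of equality. Most genes lie near the line, and Cox6a2 lies at -3.36 in the knockout and -0.17 in WT.

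Genes whose knockout difference lay further toward CD8- DCs included Cox6a2, a cytochrome oxidase subunit of heart, muscle and plasmacytoid DCs. It read 7.30, 7.50, 7.42 and 7.21 in knockout CD8+ and 11.07, 10.67, 10.71 and 10.42 in knockout CD8- arrays, and 7.10, 6.71, 6.89 and 6.58 in WT CD8+ and 7.45, 6.82, 6.52 and 7.16 in WT CD8- arrays. The subset difference was -3.36 ± 0.17 in the knockout and -0.17 ± 0.17 in WT, and the difference between them -3.19 ± 0.24 (adjusted p = 2.38e-06). The knockout CD8- arrays alone were high. Tcf4 (-1.16 ± 0.21) and Cd300c (-1.53 ± 0.24) were called in the same direction, but 12 of the 15 plasmacytoid markers were not. The mean level of the plasmacytoid list ran from 6.62 to 6.74 in WT CD8+ and from 6.82 to 7.32 in WT CD8- arrays, with 4 lower and 1 higher of 15 in WT. Its part in the differences between genotypes was not tested.

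Alox5 read 5.46, 5.50, 5.49 and 5.28 in WT CD8+ and 6.95, 6.49, 6.25 and 7.22 in WT CD8- arrays, a subset difference of -1.30 ± 0.19 beside -3.84 ± 0.19 in the knockout (difference between genotypes -2.54 ± 0.27, adjusted p = 0.00017). Its downstream receptor Ltb4r1 moved likewise (-1.31 ± 0.19). Dab2, an endocytic adaptor, read 5.08, 5.50, 5.14 and 5.17 against 8.70, 8.85, 8.79 and 8.72 in the knockout and 4.87, 5.25, 4.53 and 5.30 against 5.84, 6.28, 6.11 and 6.33 in WT (-2.39 ± 0.21, adjusted p = 1.71e-05). In Alox5 and Dab2 the knockout CD8- arrays were again the highest of the 4 groups. Tnip3, an inhibitor of NF-kB signalling (-2.15 ± 0.39), the chitinase-like Chil5 (-1.74 ± 0.31), the tetraspanin Cd63 (-1.71 ± 0.25), Ccr1 (-1.54 ± 0.28), Timd4 (-1.41 ± 0.26) and Ccl5 (-1.20 ± 0.22) followed the same pattern of a larger knockout difference.

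In other genes a difference that favoured CD8+ DCs in WT was smaller or not called in the knockout. Ccl22, a chemokine that attracts regulatory T cells through CCR4, read 10.61, 10.72, 10.71 and 10.84 in WT CD8+ and 8.27, 7.58, 7.62 and 8.55 in WT CD8- arrays, a difference of 2.71 ± 0.22. In the knockout it read 8.46, 8.71, 8.14 and 7.75 against 7.77, 7.62, 8.11 and 7.42, a difference of 0.53 ± 0.22 that was not called (adjusted p = 0.109), and the genotypes differed by -2.18 ± 0.31 (adjusted p = 0.00257). Without knockout CD8+ array 4 the knockout difference was called as well. Gclc, the catalytic subunit of glutathione synthesis, gave the smallest p of this test: 7.17, 7.21, 7.17 and 7.01 against 6.67, 6.63, 6.63 and 6.85 in the knockout (0.44 ± 0.08) and 9.15, 8.91, 9.16 and 9.01 against 6.87, 6.81, 6.77 and 6.74 in WT (2.26 ± 0.08), a difference between genotypes of -1.82 ± 0.11 (adjusted p = 1.81e-07). The WT CD8+ arrays alone were high. Plcb4, a phospholipase C, had a difference of -0.30 ± 0.14 in the knockout and 1.38 ± 0.14 in WT, and Bcl2l14 had a smaller difference in the knockout than in WT (-1.11 ± 0.17).

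Only 5 genes were called in both genotypes with opposite signs: Bcl2l11, Dapk1, Plekhb1, Noxred1 and Yaf2. All but Plekhb1 were also called for the difference between genotypes. For Yaf2 that call was lost in 12 of 16 refits without 1 array. Bcl2l11, the pro-apoptotic BH3-only protein BIM, was lower in CD8+ DCs in the knockout, 6.95, 6.85, 6.65 and 6.89 against 7.21, 7.30, 7.09 and 7.04 (-0.33 ± 0.10), and higher in WT, 7.76, 8.12, 8.08 and 8.07 against 7.44, 7.18, 7.02 and 7.16 (0.81 ± 0.10). The difference between genotypes was -1.13 ± 0.15 (adjusted p = 0.0011), and it was called in all 16 refits that left out 1 array. The knockout call itself was lost without knockout CD8+ array 2, 3 or 4 or CD8- array 1 or 2 (adjusted p up to 0.118), and that of Plekhb1 without knockout CD8+ array 1 or 3 or CD8- array 1, 2 or 4 (adjusted p up to 0.121). The death-associated kinase Dapk1 differed by -0.83 ± 0.13 in the knockout and 0.46 ± 0.13 in WT, and the reductase-like Noxred1 by 0.80 ± 0.14 and -0.46 ± 0.14.

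Differences that favoured CD8- DCs in WT and were smaller in the knockout were led by Bmp2, a ligand of the TGF-β family. Bmp2 read 3.85, 3.49, 3.68 and 3.40 in WT CD8+ and 7.39, 7.71, 7.65 and 7.43 in WT CD8- arrays (-3.94 ± 0.14), and 3.76, 3.41, 3.71 and 3.36 against 5.20, 5.04, 4.64 and 4.66 in the knockout (-1.33 ± 0.14). The genotypes differed by 2.62 ± 0.20 (adjusted p = 2.38e-06). Of the 27 CD8- DC markers 4 were called in this direction, Tlr7, Tlr5 (1.44 ± 0.24), Dscam (1.35 ± 0.19) and Esam (1.09 ± 0.20), 1, Tnip3, in the other, and 22 were not called. Esam is the adhesion molecule of NOTCH2-dependent DCs. It read 4.66, 4.68, 4.36 and 4.36 against 5.15, 4.70, 4.64 and 4.63 in the knockout and 4.60, 4.95, 5.30 and 5.03 against 6.34, 6.18, 6.34 and 6.45 in WT, so the WT CD8- arrays alone were high. The complement receptor Cr2 (1.57 ± 0.28), the succinate receptor Sucnr1 (1.55 ± 0.27), the membrane protein Gpm6b (1.57 ± 0.25), the sodium-calcium exchanger Slc8a2 (1.47 ± 0.17) and Tbc1d30 (1.47 ± 0.26) were called in the same direction. Tlr7 differed by 1.53 ± 0.31 (adjusted p = 0.0317), a call that was lost in 9 of 16 refits without 1 array, namely knockout CD8+ array 1 or 3, knockout CD8- array 3 or 4, WT CD8+ array 2, 3 or 4 and WT CD8- array 2 or 3.

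**Figure D5:**
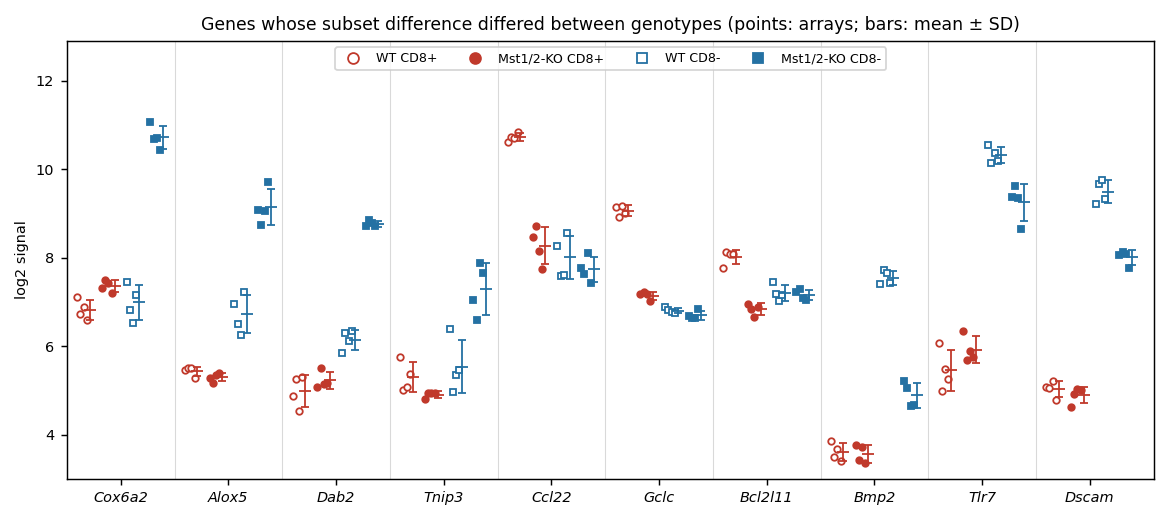
Log2 levels in each array (n = 4 per group, bars are mean ± SD) of genes whose subset difference differed between the genotypes, with WT and Mst1/2-KO CD8+ and CD8- DCs side by side. Cox6a2 reaches 10.42 to 11.07 in the knockout CD8- arrays, and Bcl2l11 lies lower in CD8+ than in CD8- arrays of the knockout only.

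The list of cholesterol and fatty acid synthesis had 14 lower and 3 higher of 25 in the knockout with a median of -0.43, and 5 lower and 7 higher with a median of -0.02 in WT, yet 1 of its 25 members was called for the difference between genotypes. The CD8+ DC list had medians of 2.70 and 2.99, the CD8- DC list -2.84 and -2.90, and the SIRP and killer lectin-like receptor list -2.42 and -2.18. No list-level test was run.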

How the data were processed

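RNA of sorted mouse spleen DCs was extracted, amplified, biotin-labelled and read on microarrays, per the labels' protocols. The deposited values are log2 signals, normalized by the authors with RMA (Partek 6.6) per the submitters' processing notes; the build behind the probes is not given in the sources used here. All 16 sorted arrays carry 1 experiment label, within which levels can be compared. Of 41155 probe sets on 34 arrays, 23521 have exactly 1 gene symbol. For the 1082 genes with several, the one with the highest mean was used, leaving 22180 genes, of which 21994 matched RefSeq by gene ID. Genes read only by probe sets that several genes share are not analysed gene by gene here.

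One linear model of the 4 group means over the 16 arrays was fitted to every gene (limma 3.58.1, lmFit with eBayes, R 4.3.3; 12 residual and 4.73 prior degrees of freedom). A gene was called where p, adjusted by Benjamini-Hochberg over all genes, was under 0.05, for the knockout subset difference, the WT one and the difference of both. The script was tested on simulated data. No filter on low values was used. Alternatives were other normalizations, filters, probe-set rules, weights, a replicate block and each array left out.

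Lists and members were chosen with earlier results of these data known: 973 of the 1057 entries of 43 lists were measured, and a gene may be in several lists. Named were Stk4, the 20 largest called differences without overlap in each direction, up to 8 called members of each list, every cell type marker, the 10 largest differences between genotypes in each direction, and, chosen after their values were seen, microRNA genes called at 2-fold or more and genes called in both genotypes with opposite signs, with Alox5ap and the genes of the other observations. Predicted genes and clones were skipped. One of these genes is not reported here. Promoters and microRNAs come from RefSeq tables.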

Additional observations from a re-analysis of the deposited data

Results flagged for a closer look

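Single arrays that stood apart from the other 3 of their group were looked for in the 296 genes named, by the gap to the nearest other array as a share of the group's range (above 0.829 for 4 arrays). Chance gives about 1 in 20 groups, and 41 of 652 groups (6.29%) passed. Knockout CD8+ array 1 had the lowest level of Tnip3 (4.79, the others 4.94) and the highest level of Ccrl2 (8.54, the others 7.66 to 7.73). Knockout CD8+ array 2 had the lowest level of Ccnd3 (7.08, the others 7.24 to 7.26) and Sucnr1 (2.69, the others 2.98 to 3.04) and the highest level of Mzb1 (4.98, the others 4.67 to 4.71). Knockout CD8+ array 3 had the lowest level of Cxcl16 (9.89, the others 9.95), Klrd1 (6.29, the others 7.27 to 7.36), Numb (6.14, the others 6.32 to 6.36), Pdia5 (9.58, the others 9.87 to 9.93) and Sh2d1b1 (4.85, the others 5.27 to 5.34) and the highest level of Cd86 (11.41, the others 11.36 to 11.37). Knockout CD8+ array 4 had the lowest level of Cd63 (6.02, the others 7.05 to 7.10) and H2-DMb2 (10.16, the others 10.35 to 10.37) and the highest level of Ccr9 (6.15, the others 5.78 to 5.84), Fdft1 (7.08, the others 6.67 to 6.74) and Ppef2 (8.35, the others 7.98 to 8.03). Knockout CD8- array 1 had the lowest level of Lats1 (7.59, the others 7.75 to 7.77) and Mycl (4.07, the others 4.26 to 4.29) and the highest level of Esam (5.15, the others 4.63 to 4.70), Fcgr2b (7.80, the others 7.41 to 7.48) and Ppargc1a (3.82, the others 3.63 to 3.64). Knockout CD8- array 2 had the lowest level of Mdh2 (11.48, the others 11.54 to 11.55), Pdha1 (7.01, the others 7.56 to 7.59), Pdia5 (5.74, the others 6.52 to 6.68) and Sav1 (7.14, the others 7.31 to 7.33). Knockout CD8- array 3 had the highest level of Rab43 (7.77, the others 7.62 to 7.64). Knockout CD8- array 4 had the lowest level of Ccl5 (10.57, the others 11.29 to 11.37), Cd274 (8.61, the others 9.12 to 9.16), Cxcl16 (8.46, the others 8.79 to 8.83), Cxcl9 (9.47, the others 9.84 to 9.90), Fcgr4 (7.12, the others 7.88 to 7.98), Il12b (6.23, the others 7.01 to 7.11), Maml2 (5.45, the others 5.81 to 5.86) and Ppt1 (10.31, the others 10.63 to 10.70) and the highest level of Cadm3 (8.43, the others 8.21 to 8.24) and Cd5l (5.12, the others 4.60 to 4.64). WT CD8+ array 1 had the lowest level of Bcl2l11 (7.76, the others 8.07 to 8.12). WT CD8+ array 4 had the lowest level of Alox5 (5.28, the others 5.46 to 5.50). WT CD8- array 1 had the lowest level of Gpm6b (6.86, the others 7.44 to 7.50) and the highest level of Tbc1d30 (6.48, the others 5.61 to 5.70). WT CD8- array 3 had the highest level of Slc8a2 (6.41, the others 6.07 to 6.09).

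The subset difference itself differed between knockout and WT, by limma's test of that difference, for 35 of the named genes. Cox6a2 had a subset difference of -3.36 in the knockout and -0.17 in WT, -3.19 between them (adjusted p = 2.38e-06). Bmp2 had a subset difference of -1.33 in the knockout and -3.94 in WT, 2.62 between them (adjusted p = 2.38e-06). Alox5 had a subset difference of -3.84 in the knockout and -1.30 in WT, -2.54 between them (adjusted p = 0.00017). Dab2 had a subset difference of -3.54 in the knockout and -1.16 in WT, -2.39 between them (adjusted p = 1.71e-05). Ccl22 had a subset difference of 0.53 in the knockout and 2.71 in WT, -2.18 between them (adjusted p = 0.00257). Tnip3 had a subset difference of -2.39 in the knockout and -0.24 in WT, -2.15 between them (adjusted p = 0.0149). Gclc had a subset difference of 0.44 in the knockout and 2.26 in WT, -1.82 between them (adjusted p = 1.81e-07). Chil5 had a subset difference of -1.76 in the knockout and -0.03 in WT, -1.74 between them (adjusted p = 0.0126). Cd63 had a subset difference of -1.85 in the knockout and -0.14 in WT, -1.71 between them (adjusted p = 0.0037). Plcb4 had a subset difference of -0.30 in the knockout and 1.38 in WT, -1.69 between them (adjusted p = 0.000485). Gpm6b had a subset difference of -1.45 in the knockout and -3.02 in WT, 1.57 between them (adjusted p = 0.00628). Cr2 had a subset difference of -0.10 in the knockout and -1.67 in WT, 1.57 between them (adjusted p = 0.0147). Sucnr1 had a subset difference of -1.89 in the knockout and -3.43 in WT, 1.55 between them (adjusted p = 0.0107). Ccr1 had a subset difference of -2.34 in the knockout and -0.81 in WT, -1.54 between them (adjusted p = 0.015). Tlr7 had a subset difference of -3.33 in the knockout and -4.86 in WT, 1.53 between them (adjusted p = 0.0317). Cd300c had a subset difference of -1.14 in the knockout and 0.38 in WT, -1.53 between them (adjusted p = 0.00542). Slc8a2 had a subset difference of -0.80 in the knockout and -2.27 in WT, 1.47 between them (adjusted p = 0.000485). Tbc1d30 had a subset difference of -0.08 in the knockout and -1.55 in WT, 1.47 between them (adjusted p = 0.0126). Tlr5 had a subset difference of -1.24 in the knockout and -2.68 in WT, 1.44 between them (adjusted p = 0.00962). Timd4 had a subset difference of -1.77 in the knockout and -0.36 in WT, -1.41 between them (adjusted p = 0.0169). Tnfsf9 had a subset difference of -2.88 in the knockout and -1.49 in WT, -1.39 between them (adjusted p = 0.0284). Dscam had a subset difference of -3.11 in the knockout and -4.46 in WT, 1.35 between them (adjusted p = 0.00228). Ltb4r1 had a subset difference of -2.61 in the knockout and -1.29 in WT, -1.31 between them (adjusted p = 0.00276). Dapk1 had a subset difference of -0.83 in the knockout and 0.46 in WT, -1.29 between them (adjusted p = 0.00276). Noxred1 had a subset difference of 0.80 in the knockout and -0.46 in WT, 1.26 between them (adjusted p = 0.00495). Ccl5 had a subset difference of -2.02 in the knockout and -0.83 in WT, -1.20 between them (adjusted p = 0.0151). Tcf4 had a subset difference of -2.14 in the knockout and -0.98 in WT, -1.16 between them (adjusted p = 0.0126). Il21r had a subset difference of -3.48 in the knockout and -2.33 in WT, -1.15 between them (adjusted p = 0.036). Bcl2l11 had a subset difference of -0.33 in the knockout and 0.81 in WT, -1.13 between them (adjusted p = 0.0011). Bcl2l14 had a subset difference of 1.39 in the knockout and 2.50 in WT, -1.11 between them (adjusted p = 0.00495). Adgre1 had a subset difference of -2.54 in the knockout and -3.64 in WT, 1.09 between them (adjusted p = 0.0284). Esam had a subset difference of -0.26 in the knockout and -1.36 in WT, 1.09 between them (adjusted p = 0.0149). Slc2a3 had a subset difference of -2.46 in the knockout and -3.27 in WT, 0.81 between them (adjusted p = 0.0476). Cd24a had a subset difference of 0.79 in the knockout and 1.47 in WT, -0.68 between them (adjusted p = 0.0317). Yaf2 had a subset difference of 0.37 in the knockout and -0.29 in WT, 0.65 between them (adjusted p = 0.0375). Refits that each left out 1 of the 16 arrays ended this call in 12 for Cd24a, 12 for Il21r, 12 for Slc2a3, 12 for Yaf2, 9 for Tlr7, 8 for Adgre1 and 7 for Tnfsf9, and in none for the others.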

How the results depend on the processing

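The knockout subset comparison called 4059 to 4663 genes (4266 in the report) under quantile normalization, cyclic loess, only genes above the median gene, each probe set alone or the mean of a gene's probe sets, a mean-variance trend, array quality weights, a replicate block and only the 8 knockout arrays, and 3808 to 3926 when each of the 8 arrays was left out. At 2-fold or more it called 968 to 1044 and 999 to 1025. The WT comparison called 4514 to 5041 and, with WT arrays left out, 4033 to 4546. Cyclic loess gave 1969 higher and 2336 lower genes in the knockout.

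The number of genes called for the difference between genotypes, 124, was 222 with array quality weights, which kept all 124, and 211 with the replicate block, which kept 107. Leaving out each of the 16 arrays gave 79 (without WT CD8- replicate 2) to 259 (without WT CD8- replicate 1). It was 80 without Mst1/2-KO CD8- replicate 4. Of the 124 genes 76, 120 and 75 were called in these 3 refits. The cause was not tested.

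The replicate numbers appear in every group, but the labels do not say that they mark a shared mouse or day. Same-numbered knockout CD8+ and CD8- arrays had deviations from their group means that correlated at 0.09 to 0.21 over all genes, against -0.18 to 0.07 for other numbers. Over genes above the median gene they correlated at 0.16 to 0.28. Same-numbered WT arrays correlated at 0.13 to 0.34 over all genes, against -0.20 to 0.04 for other numbers. In both genotypes each array correlated best with its own number, a hint from the data and not from the design. Because the labels state no pairing, the main fit did not treat the numbers as pairs, and they entered only as a replicate block among the alternatives. In 1 knockout pair the correlation lay under 0.1 over all genes, but the other measures lean toward pairing. With the replicate block the knockout comparison called 4663 genes, or 4300 over the knockout arrays alone, and the WT comparison 5041.

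Of 270 named genes called in the knockout comparison, 259 kept the call whichever array was left out and 260 under every other setting, and none reversed. Calls of Bcl2l11, Cd40, Lats1, Lats2, Plekhb1, Ppargc1a, Ppargc1b, Rassf5 and Sav1 were lost in both kinds of refit, those of Mir15a and Stk38 only when arrays were left out, and that of Yaf2 only with the 8 knockout arrays and the replicate block. Ciita was called in 6 of the settings, Zbtb46 in 2, and Ccl22, Plcb4 and Ighm in 1 each besides arrays left out. Among list counts, cyclic loess gave 4 lower members for MHC class I, 4 lower for the TCA cycle and 0 higher for the Hippo pathway, and the 8 knockout arrays with the replicate block gave 11 higher for oxidative phosphorylation and 4 lower for neutrophil markers (1 in the report). With only genes above the median gene, the median difference was -1.03 for B cell markers and -0.92 for leukotriene and prostaglandin enzymes. Detection calls were not used here, so how far low signals lie above background is unknown, and a difference between low signals may be understated.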

Other observations

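Some genes varied more between arrays of one knockout subset than between the subsets, and same-numbered CD8+ and CD8- arrays were high or low together. The genes of this paragraph were chosen after their values were seen. Ctse, the endosomal protease cathepsin E, read 5.71, 9.12, 9.14 and 5.81 in knockout CD8+ arrays 1 to 4 and 5.21, 7.92, 8.28 and 5.66 in knockout CD8- arrays 1 to 4 (difference 0.68 ± 0.93, adjusted p = 0.715). Arrays 2 and 3 were high in both subsets. Spint1, a Kunitz inhibitor of serine proteases, read 8.25, 7.80, 4.64 and 7.77 in the CD8+ and 8.06, 7.84, 4.60 and 7.54 in the CD8- arrays (difference 0.11 ± 1.23, adjusted p = 0.971), with array 3 low in both. Cryab, the small heat-shock protein αB-crystallin, read 7.92, 4.76, 5.91 and 6.93 in the CD8+ and 6.96, 3.90, 5.45 and 6.13 in the CD8- arrays (difference 0.77 ± 0.64, adjusted p = 0.497), with array 2 lowest in both. The neutrophil and monocyte gene S100a8 read 4.85, 8.38, 8.56 and 8.78 in the CD8+ and 7.02, 8.73, 9.55 and 8.63 in the CD8- arrays. Its partner S100a9 read 6.59, 9.07, 9.13 and 8.94 in the CD8+ and 7.40, 9.25, 9.73 and 9.16 in the CD8- arrays, with array 1 lowest in both subsets for both genes. None of these 5 genes was called for the subset difference without a replicate block. With it Cryab (0.77 ± 0.15, adjusted p = 0.00231) and Ctse (0.68 ± 0.16, adjusted p = 0.00889) were called, and S100a8, S100a9 and Spint1 were not (adjusted p = 0.0522, 0.16 and 0.503). With the block on the 8 knockout arrays alone S100a9 was called as well (adjusted p = 0.0273). As the genes were picked for how same-numbered arrays deviate, these values are a description.

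Outside the genes tested, 15820 probe sets without a gene in the annotation gave 530 calls in a separate fit, 283 higher and 247 lower in knockout CD8+ DCs. A further 1814 probe sets that several genes share gave 207 calls, 116 higher and 91 lower. Both are smaller shares than the 19.2% called over all 22180 genes, and the p-values of each set were adjusted on their own.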
